A study of Mus musculus with 2 samples.

Results

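The potassium channel genes of the mouse adrenal gland were taken as all protein-coding genes of GENCODE M21 whose symbol begins with Kcn, a subfamily letter code and a digit. There were 93 such genes among 22015 nuclear protein-coding genes and 55536 annotated genes, on 19 chromosomes. The symbol rule itself uses no measured value, but it was chosen with earlier results of these data known. The tissue was the whole adrenal gland of 2 adult male B6CASTF1/J mice, F1 animals of a cross between C57BL/6J and CAST/EiJ, aged 8 to 10 months. Replicate 1 was the labelled animal 2 and replicate 2 the labelled animal 4. Both belong to 1 group, with no treatment and no further genetic change in the labels, so levels were compared between genes within each gland and between the 2 animals.

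Potassium channels let potassium ions leave the cell and hold the membrane at a negative voltage. In the zona glomerulosa, the outer cortical layer that makes aldosterone, the tandem-pore channels TASK-1 (Kcnk3) and TASK-3 (Kcnk9) carry a background potassium current, and closing them depolarises the cell and opens calcium channels. In the chromaffin cells of the medulla, calcium-activated and voltage-gated potassium channels shape the action potentials that trigger catecholamine release. Each gland was sequenced as a whole, and in such bulk RNA fewer cells of a type and less RNA per cell cannot be told apart.

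Levels are given as TPM, a transcript abundance scaled to transcript length and to a common total in each library, so that genes can be compared. Total expected counts on annotated genes were 29994901 in replicate 1 and 33987434 in replicate 2. Markers of cortex and medulla were present: all 10 matched zona glomerulosa markers (a list that includes Kcnk3 and Kcnk9), all 6 zona fasciculata markers and all 12 chromaffin markers reached 1 TPM in both libraries. None of 7 kidney markers did, and 3 of them, Slc12a1, Nphs1 and Umod, had 0 counts in both. The 8 adipocyte markers summed to 224 TPM in replicate 1 and 2074 TPM in replicate 2, and the chromaffin markers to 3968 and 2932 TPM. The zona glomerulosa markers summed to 1303 and 1325 TPM, endothelial markers to 323 and 328 TPM, macrophage and lymphocyte markers to 152 and 259 TPM, and Schwann and sustentacular markers to 12.8 and 27.3 TPM. The zona fasciculata markers summed to 12252 and 10638 TPM. Of 6 skeletal muscle markers 1 was detected.

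Alternative starts matter for 2 of the channels described below, Kcnk2 and Kcnh2, and the 250 bases before the starts concerned are shown first, from the RefSeq promoter windows on GRCm38.p6. They are written 5′ to 3′ on the gene's strand, in lower case with each CG pair in capitals. The pair from Kcnk2, 2 of its 4 RefSeq starts, shows the start that took most of its RNA and that of its lowest-numbered transcript, which took little. The one from Kcnh2 precedes the internal start of a shorter transcript.
Kcnk2, upstream start, minus strand, chr1:189402274-189402523: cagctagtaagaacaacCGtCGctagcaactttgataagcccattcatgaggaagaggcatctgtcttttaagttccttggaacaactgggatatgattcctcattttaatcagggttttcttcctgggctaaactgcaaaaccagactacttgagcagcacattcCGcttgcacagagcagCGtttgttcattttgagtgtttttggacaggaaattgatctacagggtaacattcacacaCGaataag
Kcnk2, start of Kcnk2-201, minus strand, chr1:189344193-189344442: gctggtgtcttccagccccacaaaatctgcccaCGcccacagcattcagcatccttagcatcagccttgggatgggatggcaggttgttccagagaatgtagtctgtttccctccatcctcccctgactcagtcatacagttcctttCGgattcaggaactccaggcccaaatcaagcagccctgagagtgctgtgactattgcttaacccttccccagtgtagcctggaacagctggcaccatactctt
Kcnh2, start of Kcnh2-202, minus strand, chr5:24329592-24329841: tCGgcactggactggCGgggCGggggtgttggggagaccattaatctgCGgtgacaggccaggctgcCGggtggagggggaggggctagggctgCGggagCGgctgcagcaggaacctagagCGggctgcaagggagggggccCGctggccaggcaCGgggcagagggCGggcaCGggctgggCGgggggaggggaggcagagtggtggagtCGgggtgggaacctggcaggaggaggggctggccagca

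The Kcnk2 stretches shown held few CG pairs, 5 at the upstream start and 2 at the start of Kcnk2-201, where the median over all 32851 RefSeq windows was 6.0. The same length before the other 2 Kcnk2 starts held 28 and 27. The stretch before the internal Kcnh2 start held 14, and its GC content was 73.6% against a median of 52.4% over all windows. RefSeq windows were matched by symbol to 68 of the 93 genes. Kcnk3, Kcnk9 and Kcnn2 were not among them.

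Few potassium channel genes were abundant, and most were weakly expressed. With detection set at 1 TPM or more in both libraries, 36 of 93 were detected (38.7%), where 56.3% of all nuclear protein-coding genes were. At 10 TPM or more in both, 6 of 93 remained (6.45%), against 31.4% of nuclear protein-coding genes. Their median level was 0.61 TPM in replicate 1 and 0.77 TPM in replicate 2, below the 2.53 and 3.02 TPM of nuclear protein-coding genes. TPM here are relative to all RNA entries, and rescaled to nuclear protein-coding genes alone, 54 of the 93 reached 1 TPM in both libraries. That rescaling raises every protein-coding gene. The share of all nuclear protein-coding genes under it was not computed, so the 54 cannot be set against the 56.3%.

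The summed TPM of the 93 genes was 898 in replicate 1 and 907 in replicate 2. Tandem-pore channels held 70.1 ± 0.785% of it (SD, n = 2), calcium- or sodium-activated channels 15.7 ± 1.73%, voltage-gated channels 8.40 ± 0.659%, accessory subunits 3.51 ± 0.0941% and inward rectifiers 2.26 ± 0.381%. This order of the 5 classes was the same in both animals. In the kallisto-format tables, where Kcnj5 was much higher, inward rectifiers held 4.33% and 5.63% and stood above accessory subunits at 3.18% and 3.58%. The 4 highest genes, Kcnk3, Kcnk9, Kcnn2 and Kcnma1, together held 82.1% and 80.2% of the sum.

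**Figure D1:**
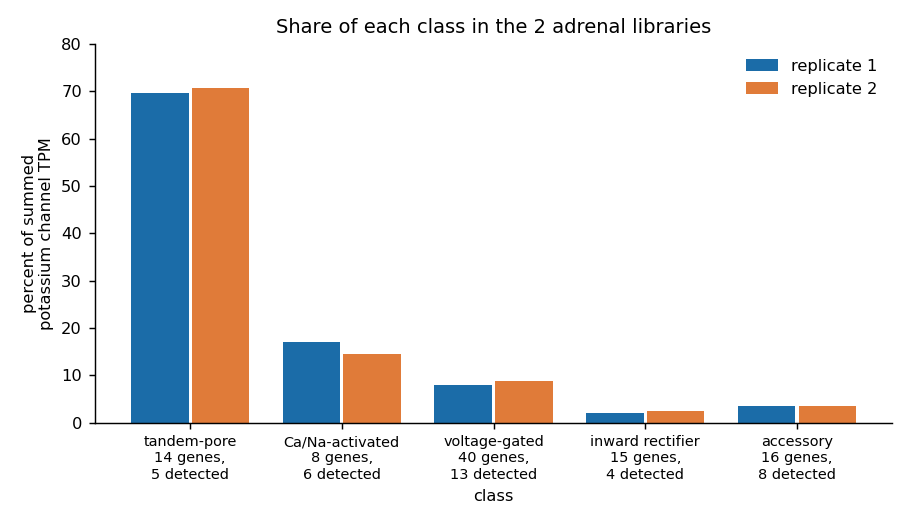
Share of each channel class in the summed TPM of the 93 potassium channel genes, as percent on the vertical axis, with 1 bar per library. The tandem-pore bars stand at 69.6% and 70.7%, and the share of voltage-gated channels, the class with most genes, is 7.93% and 8.86%.

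The tandem-pore family, whose subunits each carry a pair of pore loops, was led by one gene. Kcnk3 (TASK-1, ENSMUSG00000049265.7, chromosome 5, 30588170 to 30625271, plus strand) measured 522 TPM in replicate 1 and 515 TPM in replicate 2, or 518 ± 5.09 TPM. This placed it 52nd among the 22015 nuclear protein-coding genes. Kcnk9 (TASK-3, chromosome 15, 72501089 to 72546340, minus strand), an imprinted gene that forms channels alone or with TASK-1, measured 73.2 and 92.8 TPM. Kcnk3 and Kcnk9 together took 95.3% and 94.8% of all tandem-pore TPM.

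The Kcnk3 level was 7.13 times that of Kcnk9 in replicate 1 and 5.55 times in replicate 2. In expected counts, which are not corrected for length, the same ratio was only 2.06 and 1.63. Kcnk3 gave 51468 and 55369 counts and Kcnk9 25034 and 34058. The annotated transcript Kcnk9-201 has 12300 exon bases and Kcnk3-201 has 3811. By the second deposited quantification, in kallisto format, the TPM ratio averaged 8.36.

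Further tandem-pore genes followed far below. Kcnk2 (TREK-1, a stretch- and lipid-sensitive channel) measured 18.9 and 16.5 TPM, and Kcnk1 (TWIK-1) 7.50 and 12.6 TPM. Kcnk5 (TASK-2, an alkaline-activated channel) measured 1.81 and 2.38 TPM. The other 9 of 14 stayed under 1 TPM in both glands, the highest of them Kcnk6 at 0.86 and 0.85 TPM. Kcnk16 and Kcnk18 had 0 counts in both libraries, so their RNA could still have been present at up to 3 counts. In CPM, a count scaled to its library's total, that limit is 0.10 in replicate 1 and 0.0883 in replicate 2.

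Kcnk2 RNA came mainly from the upstream start. Transcripts beginning there took 85.6% of Kcnk2 TPM in replicate 1 and 78.2% in replicate 2. The start of Kcnk2-201, 58.1 kb downstream, took 2.65% and 7.02%, and the other 2 starts together 10.4% and 14.8%. In the kallisto-format tables the upstream start still led, with 57.0% and 60.5%, and the start of Kcnk2-201 rose to 16.4% and 18.2%. Most RNA from the upstream start was Kcnk2-203, annotated as a target of nonsense-mediated decay, with 56.1% and 48.6% of the gene's TPM. The coding transcript Kcnk2-209 took 29.5% and 29.7%.

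**Figure D2:**
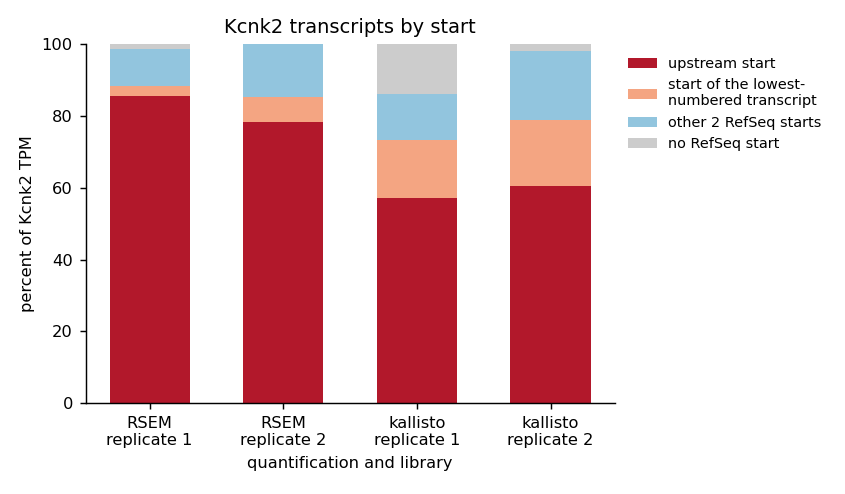
Percent of Kcnk2 TPM by transcript start, as stacked bars for each library in the RSEM-format and the kallisto-format tables; the lowest-numbered transcript is Kcnk2-201. The upstream start is the largest part of all 4 bars, between 57.0% and 85.6%.

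Calcium- and sodium-activated channels had the highest share of detected genes, 6 of 8. Kcnn2 (SK2, a small-conductance channel opened by calcium through calmodulin, chromosome 18, 45268860 to 45686024) measured 84.9 TPM in replicate 1 and 68.2 TPM in replicate 2. Kcnma1 (BK, the large-conductance channel opened by calcium and depolarisation, chromosome 14, 23289431 to 24014491, minus strand) measured 57.8 and 51.5 TPM. In gene TPM, Kcnn2 stood above Kcnk9 in replicate 1 and below it in replicate 2, so the order of these 2 genes was not settled. Coding transcripts held 56.9% and 72.9% of Kcnn2 TPM, against 100% of Kcnk9 TPM in both glands. Kcnma1 was below both genes in each gland. Kcnn2 and Kcnma1 each spread over several transcripts. The highest of Kcnn2 was the coding Kcnn2-203, with 35.7% and 37.9% of the gene's TPM, and the noncoding Kcnn2-209 took 18.3% in replicate 1 and 5.27% in replicate 2. The highest of Kcnma1 was the coding Kcnma1-221, with 34.0% and 40.2%.

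The remaining genes of this class were low. The sodium-activated Kcnt1 measured 4.09 and 4.10 TPM and its relative Kcnt2 1.07 TPM in each gland. In counts Kcnt1 had 281 and 464, 1.42-fold higher in replicate 2 after scaling (1.22 to 1.65, counting error only). The short transcript Kcnt1-209, of 532 exon bases, took 34.4% and 2.93% of Kcnt1 TPM. Kcnn3 (SK3) measured 2.13 and 2.47 TPM and Kcnn1 (SK1) 1.06 and 1.74 TPM. Kcnn4, the intermediate-conductance channel of blood and epithelial cells, stayed at 0.31 and 0.57 TPM. Kcnu1, a pH-sensitive relative of BK known from sperm, measured 0.89 and 1.80 TPM. It lies 33.6 kb beyond the end of Star, the cholesterol carrier gene that measured 5876 ± 1385 TPM; this neighbour was looked up after the values were seen.

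BK channels are tuned by beta and gamma subunits. Of the beta subunits, Kcnmb4 measured 5.64 and 4.49 TPM and Kcnmb2, which makes BK channels inactivate, 2.95 and 3.07 TPM. Kcnmb1, the smooth muscle subunit, was at 0.04 and 0.11 TPM. Of 4 gamma subunits, only Lrrc55 was detected, at 10.9 and 10.2 TPM, and Lrrc26 and Lrrc52 had 0 counts in both libraries.

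Voltage-gated channels were the class with most genes, and 13 of 40 were detected. Kcnh2 (ERG1, chromosome 5), whose slow closing limits repetitive firing, was the highest at 13.9 TPM in replicate 1 and 17.2 TPM in replicate 2. That was 19.5% and 21.4% of the voltage-gated sum. The 7 other Kcnh genes stayed at or below 0.63 TPM. The full-length Kcnh2-201 took 42.0% and 51.9% of Kcnh2 TPM, and Kcnh2-202, which begins at the internal start shown above, 30.7% and 26.8%.

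Amigo1, a membrane protein that associates with voltage-gated channels, measured 11.99 and 13.71 TPM. Silent subunits, which form no channel alone and modify other voltage-gated subunits, were mostly not detected: 2 of 10 genes of the Kcnf, Kcng, Kcns and Kcnv groups were detected. Kcng3 (Kv6.3) led them at 7.71 and 6.40 TPM, and Kcng2 measured 1.38 and 1.41 TPM. Kcnf1 measured 0.65 and 0.55 TPM, Kcnv1 0.01 and 0.02 TPM, and Kcns1 had 0 counts in both.

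The Kcnq family, which underlies the M current, had 4 of 5 genes detected. Kcnq3 measured 6.91 and 4.07 TPM and Kcnq1 3.59 and 4.83 TPM, and their order differed between the glands. Kcnq1 overlaps the long antisense RNA Kcnq1ot1, which measured 3.17 and 1.68 TPM, below Kcnq1 in both glands. In counts, which are not corrected for length, it had 8263 and 4709 against 258 and 369 for Kcnq1. The library kit kept strand, per the labels, but whether the counting used it is not given in the sources used here.

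Among fast Kv3 and Kv4 channels, Kcnc4 (Kv3.4) measured 7.78 and 7.08 TPM and Kcnd3 (Kv4.3) 4.78 and 5.58 TPM. Kcnd2 (Kv4.2) was lower, at 1.35 and 1.60 TPM. The Kv4 partners were also present. Dpp6 measured 7.23 and 6.37 TPM and the calcium sensor Kcnip3 4.28 and 3.77 TPM, whereas Dpp10 was at 0.12 and 0.10 TPM. Of 8 Shaker-type Kcna genes only Kcna5 was detected, at 1.02 and 1.35 TPM, and Kcna10 had 0 counts in both. Their beta subunits Kcnab3, at 7.31 and 8.07 TPM, and Kcnab2, at 2.27 and 3.10 TPM, were higher. The single detected Kcne subunit was Kcne4, at 3.45 and 2.49 TPM.

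Inward rectifiers pass potassium inward more easily than outward and stabilise the resting voltage, and 4 of 15 were detected. Kcnj2 (Kir2.1) led at 8.88 TPM in replicate 1 and 9.89 TPM in replicate 2. Its neighbour Kcnj16, 38.2 kb away on the same strand, measured 0.02 and 0.04 TPM. Kcnj8 (Kir6.1), the pore of the vascular ATP-sensitive channel, measured 1.56 and 4.39 TPM, and its receptor partner Abcc9 3.78 and 6.71 TPM. The pancreatic-type pair was lower, with Kcnj11 at 0.16 and 0.42 TPM and Abcc8 at 0.59 and 0.44 TPM. The other detected genes were the Kir2 members Kcnj4, at 1.67 and 2.32 TPM, and Kcnj12, at 1.71 and 1.32 TPM.

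The G-protein-gated channels Kcnj3 (GIRK1), Kcnj6 (GIRK2) and Kcnj9 (GIRK3) lay between 0.23 and 1.23 TPM. Kcnj5 (GIRK4), known for mutations in human aldosterone-producing adenomas, was the gene on which the 2 deposited quantifications parted. The RSEM-format tables gave 0.47 TPM in replicate 1 and 0.79 TPM in replicate 2, from 61 and 109 counts. The kallisto-format tables gave 24.7 and 30.4 TPM, which would rank it 5th rather than 47th among the 93 genes. Nearly all of that, 97.5% and 98.1%, was on Kcnj5-203, a transcript of 3 exons with 318 coding bases that the RSEM-format tables held at 0. Its sequence has 2410 words of 31 bases, of which 27 were in no other Kcnj5 transcript and 2 occurred, on either strand, in transcripts of 9 other genes. Which of the values is nearer the true level was not tested, so the level of Kcnj5 is uncertain here.

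All 36 genes detected by the RSEM-format tables, which leaves out Kcnj5, lay within 1.5-fold between both quantifications. Of these, 29 were lower in the kallisto-format tables, with a median ratio of 0.844. The same values over all protein-coding genes were not computed, so these are not read as particular to channels. Of the 24 highest genes, 23 were also among the 24 highest by kallisto. At low levels Kcnk4 stood apart, with a kallisto to RSEM ratio of 7.26 on 2 and 3 counts, and Kcnip2, with a ratio of 3.13 on 9 and 10 counts.

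**Figure D3:**
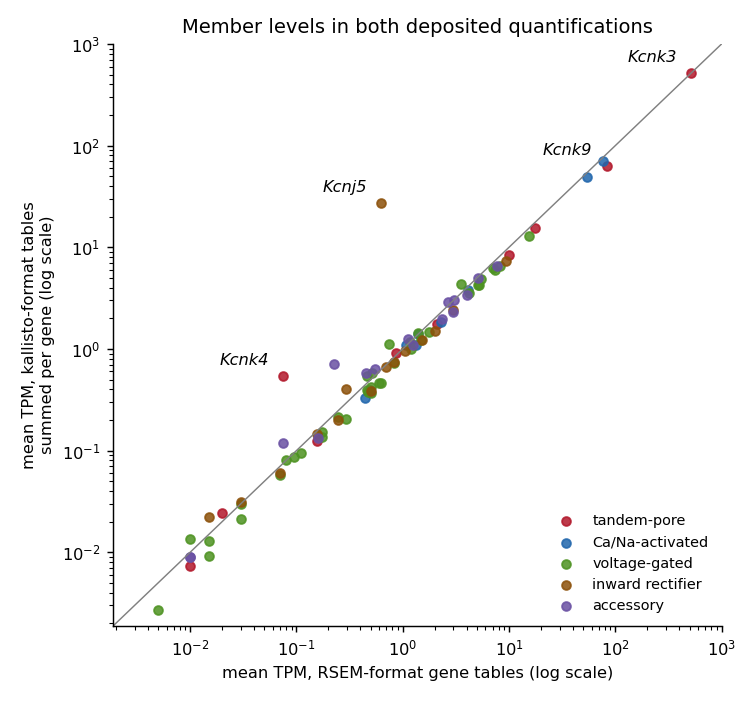
Mean TPM of 88 potassium channel genes above 0 in both quantifications, RSEM-format on the horizontal and kallisto-format on the vertical axis, both logarithmic, 1 point per gene. Kcnj5 lies far above the line of equality, and Kcnk4 and Kcnip2 lie above it at low levels.

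Neighbours in the order of levels mostly had overlapping TPM ranges across the glands. Among the 24 highest genes, 6 of 23 pairs adjacent in rank had separate ranges. These included the pairs of Kcnk3, Kcnn2, Kcnma1, Kcnh2 and Kcnip3 with the gene ranked next. The same share over all protein-coding genes was not computed, and with so few animals separate ranges can arise by chance. The count is therefore not read as settling the order. Next to the detection threshold, Kcna5 and Kcnn1 lay just above it. Kcnab1 at 0.98 and 1.27 TPM, Kcnj6 at 1.23 and 0.89 TPM, and Kcnu1 lay just below. At the bottom, 18 genes were under 0.1 TPM in both glands, 11 had 0 counts in 1 library, and 4 (Kcna10, Kcns1, Kcnk16, Kcnk18) had 0 in both.

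**Figure D4:**
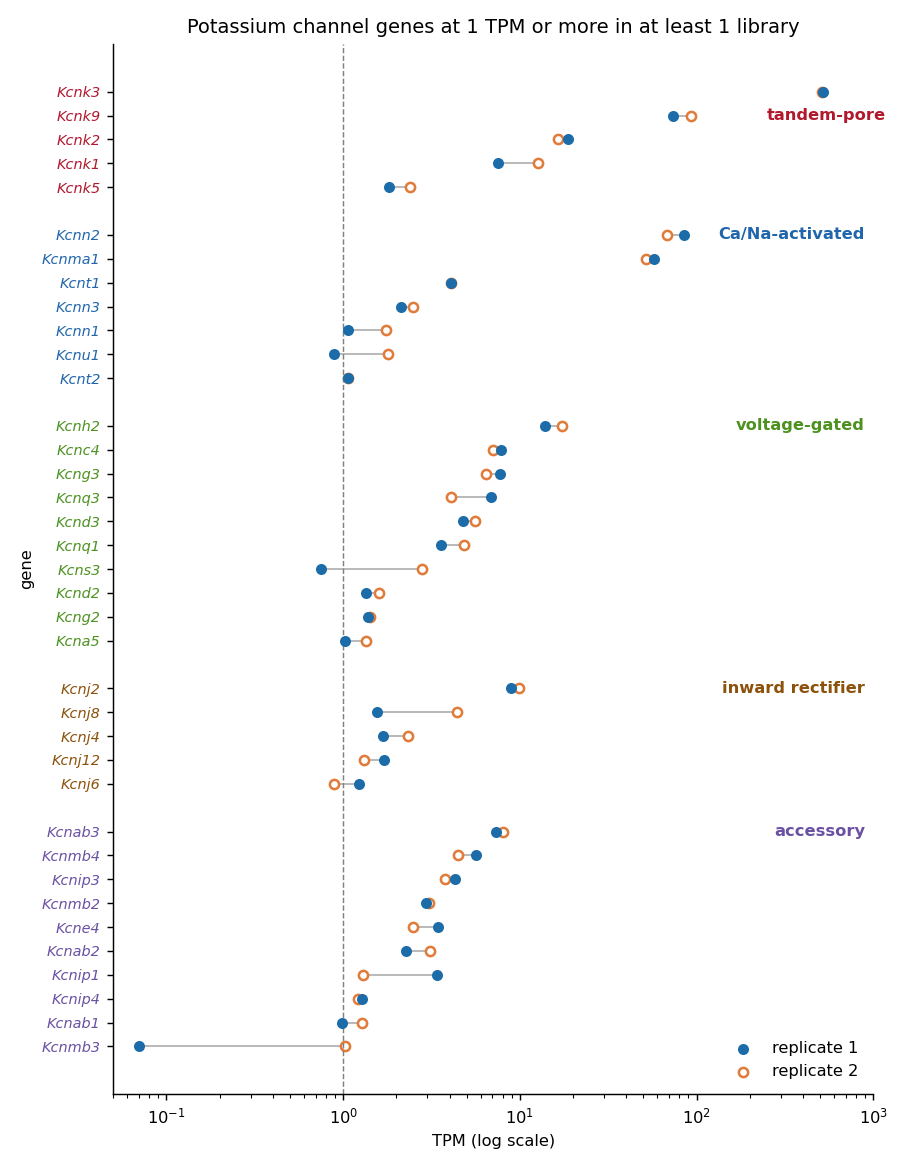
TPM on a logarithmic axis for 37 of the 41 potassium channel genes at 1 TPM or more in at least 1 library, grouped by class, with filled points for replicate 1 and open points for replicate 2. Kcnk3 stands alone at the right, at 522 and 515 TPM, and most genes lie between 1 and 10 TPM, with the dashed line at 1 TPM.

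Most RNA of the detected genes was on transcripts annotated as coding, 87.7% of their summed TPM in replicate 1 and 91.7% in replicate 2. The median gene had 97.2% and 98.9% on coding transcripts, against 87.4% and 88.5% for all 12385 detected protein-coding genes. Under 50% in both glands were 2 of the 36, Kcnab3 with 30.4% and 42.6% and Kcnt1 with 17.1% and 26.2%, where 8.69% of all detected protein-coding genes were. For Kcnab3 the largest part was the retained-intron transcript Kcnab3-203, at 63.8% and 57.4%. Kcnk3-201, the coding transcript, took 94.2% and 95.9% of Kcnk3 TPM, but 72.7% and 81.1% in the kallisto-format tables, the rest being the short noncoding Kcnk3-202.

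Between the animals, 3 potassium channel genes lay at least 2-fold apart: Kcns3 and Kcnj8 were higher and Kcnip1 lower in replicate 2. Folds are ratios of counts scaled by TMM (edgeR), with exact binomial 95% intervals that cover counting error only. Of the 35 members averaging 100 counts or more, 28 were under 1.5-fold apart (80%), where 90.9% of 12021 nuclear protein-coding genes were. The interval excluded 1 for 22 of the 35 (62.9%), against 56.7%. At least 2-fold higher in replicate 2 were 2 of 35 (5.71%), where 2.38% of the protein-coding genes were. At least 2-fold lower was 1 of 35 (2.86%), against 0.715%. Resting on 2 genes and 1 gene, these shares are not read as particular to channels. The median log2 ratio of CPM + 1 was 0.06 over the 68 members averaging 10 counts or more, and 0.03 over all such protein-coding genes. No p-value is given, since each side of this comparison is a single animal.

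The genes that differed were a silent subunit, a vascular inward rectifier and a calcium sensor. Kcns3 (Kv9.3) rested on 49 and 200 counts and was 3.51-fold higher in replicate 2 (2.56 to 4.90). Kcnj8 had 102 and 315 counts, 2.66-fold higher (2.12 to 3.35), while Abcc9 was 1.54-fold higher. Kcnip1, a Kv4 partner, had 175 and 71 counts, 2.87-fold lower in replicate 2 (2.16 to 3.83).

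Markers of other cells moved between the same libraries. All 8 adipocyte markers were at least 2-fold higher in replicate 2, among them Adipoq at 18.9 and 175 TPM and the brown fat gene Ucp1 at 0.14 and 80.6 TPM. The 8 smooth muscle and pericyte markers summed to 135 and 91.1 TPM, and 4 of them had a log2 ratio above 0. Among these, Rgs5, Notch3 and Pdgfrb were 1.70-, 1.65- and 1.43-fold higher in replicate 2. Acta2 and Tagln were at least 2-fold lower and Des was 1.27-fold lower. Of 12 chromaffin markers, Th and Pnmt were at least 2-fold lower and none at least 2-fold higher. The part of these in the Kcns3, Kcnj8 and Kcnip1 differences was not tested. Kcnk3, which brown adipocytes also express, was 1.08-fold lower in replicate 2, and Kcnk9 1.17-fold higher.

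**Figure D5:**
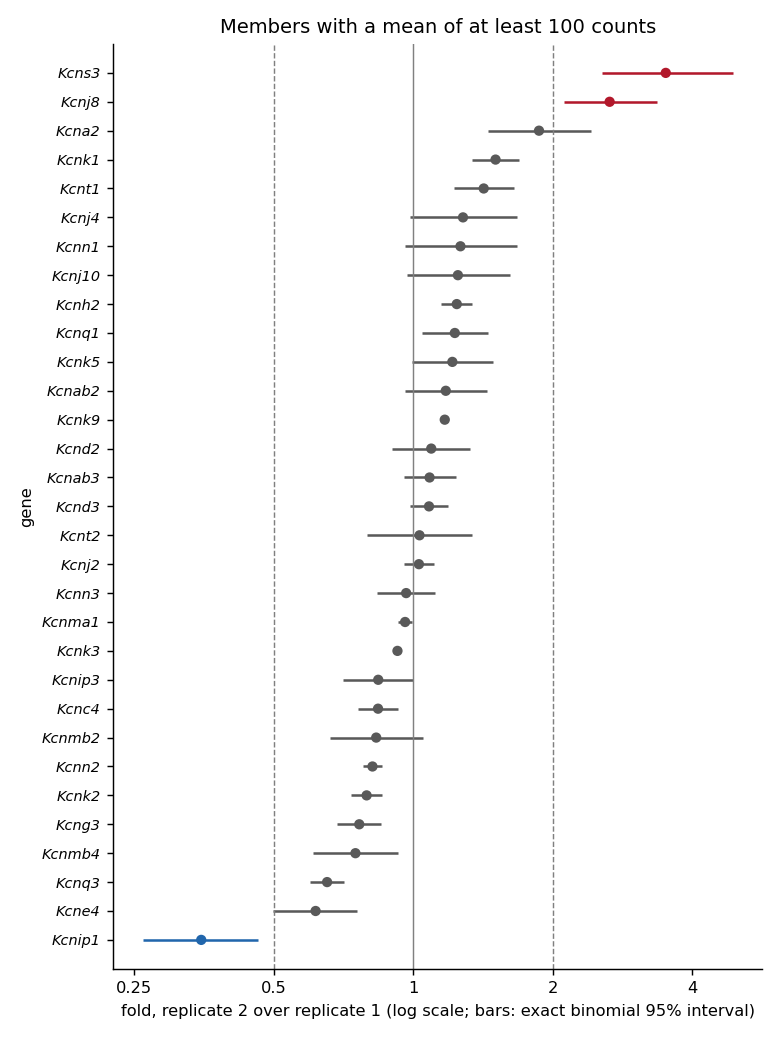
Fold of scaled counts, replicate 2 over replicate 1, on a logarithmic axis for 31 of the 35 potassium channel genes averaging 100 counts or more, with exact binomial 95% intervals as bars and dashed lines at 0.5 and 2. Kcns3 and Kcnj8 lie above 2, Kcnip1 lies below 0.5, and 24 of the genes drawn are under 1.5-fold apart.

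Most of the listed genes of other pumps and channels that work with these channels were detected. The sodium-potassium pump, which builds the potassium gradient, had 10 of 12 listed genes detected, among them the regulatory subunit Fxyd6 at 128 and 137 TPM and the beta subunit Atp1b3 at 63.8 and 78.4 TPM. Of 6 further genes of aldosterone-producing cells, 5 were detected, among them the calcium channel genes Cacna1c at 77.0 and 51.5 TPM and Cacna1h at 63.0 and 69.5 TPM. Atp2b3, a calcium pump, measured 26.2 and 27.9 TPM, Clcn2, a chloride channel, 13.2 and 17.7 TPM, and Cacna1d 13.8 and 11.5 TPM.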

How the data were processed

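Total RNA of 2 adrenal glands was made into libraries from 300 ng each with a directional kit and ERCC spike-ins, per the labels. The authors deposited RSEM-format gene and transcript tables with expected counts, which are not normalized, and TPM, per the file headers. Each transcript table also gives, as deposited, each transcript's percent of its gene's TPM, and the deposited kallisto-format tables give estimated counts and TPM. The text deposited with them names mm10 and GENCODE M21; versions of the tools: not given in the sources used here. Every table was used as 1 sample, without pooling.

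The authors' gene tables also hold a posterior standard deviation of each count, a signal that is never negative, per the file headers; it was 0 in both libraries for 92 of the 93 members and was not used further.

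The 93 members and the marker and partner lists were chosen with earlier results of these data known. The zona glomerulosa list has 11 entries, of which 10 matched a symbol. Named genes are Kcnk3 and Kcnk9, the 24 highest, the highest of each subfamily, those at least 2-fold apart, the 3 on each side of the detection threshold, those at 0 counts in both libraries and partner genes at 1 TPM or more; further members are named as parts of the families described. Some genes that the rule takes are not reported here by name or drawn with a name; they stay in all counts and sums.

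Expected counts, rounded for factors and folds, were scaled by TMM in edgeR 4.0.16 (R 4.3.3), with DESeq2 1.42.0 size factors as an alternative. Log2 ratios used unrounded CPM + 1, which understates differences of low genes. Folds carry exact conditional binomial 95% intervals from scipy 1.17.1. The fold script was tested on simulated counts. Totals were 29994901 and 33987434 expected counts; a count of 0 allows up to 3 counts. Intervals and floors cover counting error only. Kallisto TPM were summed per gene. Transcripts were assigned to a RefSeq start (GRCm38.p6) within 150 bases.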

Additional observations from a re-analysis of the deposited data

How the results depend on the processing

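No paired analysis was possible because the 2 libraries form 1 group and no groups share replicate numbers. The number of detected genes was 36 and stayed within 1.5 times under every alternative run, from 24 at a threshold of 2 TPM to 54 with TPM rescaled to nuclear protein-coding genes; with 1 library left out it ranged from 37 to 40. The Kcnk3 share of summed TPM was 57.4%, and became 59.2% by kallisto, 56.3% by posterior mean TPM and 58.7% over detected genes only (56.8% to 58.1% with a library left out). The tandem-pore share of 70.1% became 69.0% by posterior mean TPM and 71.5% over detected genes only (69.6% to 70.7% with a library left out). The voltage-gated share of 8.40% became 7.48% by kallisto and 7.58% over detected genes (7.93% to 8.86%), and the accessory share of 3.51% became 3.38% by kallisto, 3.90% by posterior mean TPM and 3.29% over detected genes (3.44% to 3.58%). The inward rectifier share of 2.26% became 4.98% by kallisto, where Kcnj5 was higher, and 1.80% over detected genes (1.99% to 2.53%). The Kcnk3 to Kcnk9 ratio, 6.34 on average, became 8.36 by kallisto (5.55 to 7.13). Coding transcripts held 89.7% of TPM, and 78.2% by kallisto (87.7% to 91.7%); the cause was not tested. The count of 3 of 35 genes at least 2-fold apart was the same under DESeq2 size factors, library totals and ERCC totals. It was 4 of 39 by kallisto, 7 of 68 with a minimum of 10 counts and 9 of 93 with none. The shares of all protein-coding genes under these alternatives were not computed. The median log2 ratio of members kept its sign under every scaling, minimum and pseudocount tried, from 0.0413 to 0.110. Over all protein-coding genes it was 0 with no minimum count and between 0.0154 and 0.0901 otherwise. The member values are therefore not read as particular to channels. By kallisto, an alternative added after seeing the data, 7 rather than 6 adjacent pairs of the 24 highest genes had separate TPM ranges. Of the levels of these 24 genes and Kcnj5, 14 moved by more than the SD between the animals by kallisto and 6 by posterior mean TPM. Depth left 58 of the 93 genes, those averaging under 100 counts, without a fold call.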

Other observations

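Below 100 counts, further potassium channel genes lay at least 2-fold apart with an interval excluding 1, all with few counts. The share of all protein-coding genes at such counts was not computed, so these are not read as particular to channels. Kcnmb3, a BK beta subunit, had 3 and 50 counts and was 14.3-fold higher in replicate 2 (4.63 to 71.8). Kcnj15, an inward rectifier, had 21 and 92 counts, 3.77-fold higher (2.33 to 6.37), and Kcnj11 14 and 38 counts, 2.33-fold higher (1.24 to 4.66). Kcnh4 had 17 and 7 counts, 2.83-fold lower in replicate 2 (1.11 to 8.06). Kcnc2, a Kv3 channel gene, had 1 and 14 counts, and Kcne1l 0 and 14.

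Of the 9 pairs of potassium channel genes that lie within 100 kb of each other, none had both genes detected. The same share over neighbouring protein-coding genes was not computed, and with few pairs and most members undetected this is not read as particular to channels. Kcnj2 beside Kcnj16, Kcnk5 beside Kcnk16 and Kcnip1 overlapping Kcnmb1 each paired a detected gene with one at or below 0.11 TPM in both glands. On the opposite strand, 12 of the 93 genes were overlapped by a gene at 1 TPM or more in both glands, 7 of them detected. The share of all protein-coding genes so overlapped was not computed. Among these were Kcnk3, whose overlapping transcript Gm9899 measured 5.17 and 6.71 TPM, and Kcnip4, at 1.28 and 1.22 TPM, overlapped by 5730480H06Rik at 9.53 and 6.09 TPM.

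The 250 bases before RefSeq starts held a median of 10.0 CG pairs in 35 windows of detected potassium channel genes and 7.0 in 58 windows of those not detected. Over all nuclear protein-coding genes the medians were 15.0 in detected and 3.0 in undetected genes. The letters TATAAA, searched on both strands of the whole windows, were in 0 of the 35 windows of detected and 5 of the 58 windows of undetected potassium channel genes, against 6.89% of the windows of detected and 20.7% of those of undetected protein-coding genes and 13.6% of all windows.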
